A study of Mus musculus with 6 samples.

Results

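The genes described here are 10 markers of hepatic stellate cells and of the extracellular matrix that these cells lay down, picked by gene symbol from the 15953 genes of the deposited table. Lrat, Reln and Des stand for the quiescent stellate cell, and Acta2, Pdgfrb, Col1a1, Col1a2, Col3a1, Dcn and Lum stand for activation and matrix. All 10 were in the table, and all 10 were among the 12033 genes that passed the low-count filter. The RNA came from livers of C57BL/6 mice, 3 of them wild type and 3 with a Cgref1 knockout, with no treatment named. Both tissue (liver) and cell type (hepatocytes) appear in the labels, and each sample is titled a biological replicate. Age, sex, diet, the kind of Cgref1 allele and the part of the gene removed were not given in the sources used here. The p-values below reflect the spread among these 6 samples.

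The total per library ranged from 17627734 to 18366443 estimated counts. Cgref1 itself was counted 7, 7 and 19 times in wild type replicates 1, 2 and 3, and 7, 12 and 10 times in the knockout replicates 1, 2 and 3. With the gene kept in the fit its log2 fold change was -0.12 (SE 0.52, edgeR adjusted p 0.996), so these counts do not mark out the knockout, and that group is called knockout-labelled. Markers of cells other than hepatocytes were present in every library, against the cell type label: the sinusoidal endothelial genes Clec4g and Ehd3 with means of 78.1 and 65.4 CPM (the count relative to the scaled library size) in wild type, and the Kupffer cell genes Cd5l and Clec4f with 67.3 and 48.1 CPM. The hepatocyte genes Alb and Apoa1 stood at 67241 and 5746 CPM there. Within wild type, markers of fat, skeletal muscle and pancreas stood below these endothelial, Kupffer cell and hepatocyte genes: Fabp4 (7.72 CPM) and Cidec (1.70 CPM) were the highest adipocyte genes. The highest muscle genes were Neb (8.05 CPM) and Mylpf (0.327 CPM), and the highest pancreatic genes Cela2a (0.525 CPM) and Cpb1 (0.018 CPM). Summed over 24 intestinal genes below the low-count filter, the level was 12.7, 1.33 and 26.1 CPM in wild type replicates 1, 2 and 3. It was 0.29, 0.64 and 0.55 CPM in the knockout-labelled replicates. The filter drops genes high in only 1 or 2 libraries, so this subset favours genes with such a pattern.

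Stellate cells lie between the sinusoidal endothelium and the hepatocytes and store vitamin A as retinyl esters. When the liver is injured they lose these stores, take on a contractile phenotype with smooth muscle actin, respond to platelet-derived growth factor and transforming growth factor beta, and secrete fibrillar collagens. Uninjured liver holds few activated stellate cells, and the small leucine-rich proteoglycans decorin and lumican are also part of normal matrix. In bulk tissue, fewer cells of a type and less RNA per cell cannot be told apart.

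On a per-length scale (TPM, as the authors deposited it), Dcn, the decorin gene, was by far the most abundant of the 10, at 120.7 TPM on average over all 6 libraries (range 94.99 to 165.69). It made up 78.8% to 82.9% of the summed TPM of the 10 genes. Lum, the lumican gene, was next at 7.83 TPM (5.76 to 11.75). Col3a1 (4.40 TPM), Lrat (4.26 TPM) and Reln (3.83 TPM) followed, with overlapping spreads over the libraries. Within single libraries, Col3a1 was above Lrat in 5 of 6, Lrat above Reln in 5 of 6 and Reln above Des in 6 of 6. Des stood at 2.47 TPM and Col1a2 at 2.25 TPM, also within each other's spread. Pdgfrb (1.20 TPM), Acta2 (1.11 TPM) and Col1a1 (1.10 TPM) closed the order, with Acta2 ranging from 0.62 to 2.33 TPM. The gap between Dcn and Lum and that between Col1a2 and Pdgfrb were the places where the ranges of neighbours did not overlap. Acta2, the marker of the activated state, was thus among the lowest of the 10. The summed TPM of the 10 genes, mostly Dcn, was 156.7, 150.5 and 205.2 in wild type and 120.6, 121.9 and 140.2 in the knockout-labelled libraries, without overlap; on the TPM scale the median log2 fold change of all genes was itself -0.11 with a pseudocount of 1.

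The comparison asked how the expression of these genes differed between the Cgref1 knockout-labelled and the wild type livers. Acta2 was higher in all 3 knockout-labelled libraries than in any wild type library, the 3 quiescent markers had lower means in the knockout-labelled group, and the 3 fibrillar collagen genes had nearly equal means. None of these differences passed the test: edgeR called 0 of the 10 genes after Benjamini-Hochberg adjustment over all genes, against 0.00831% of all genes tested (1 gene), and the adjusted p ran from 0.85 to 1.00. DESeq2 (0.257% of its genes called) and limma-voom (0.00831%) also called 0 of the 10. At an unadjusted p under 0.05 there were 3 of the 10, against 5.15% of all genes tested: Acta2 was higher (2.95% of all genes) and Reln and Dcn were lower (2.2% of all genes). The groups did not overlap in CPM for 2 of the 10, against 10.8% of all genes tested: Acta2 was higher (6.19% of all genes) and Reln lower (4.63% of all genes). Of the 10 log2 fold changes 8 were negative, against 50.5% of all genes, and their median was -0.27 against -0.0022 over all genes. These 10 genes share their libraries and may partly share their cells of origin, so the counts are not independent.

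**Figure D1:**
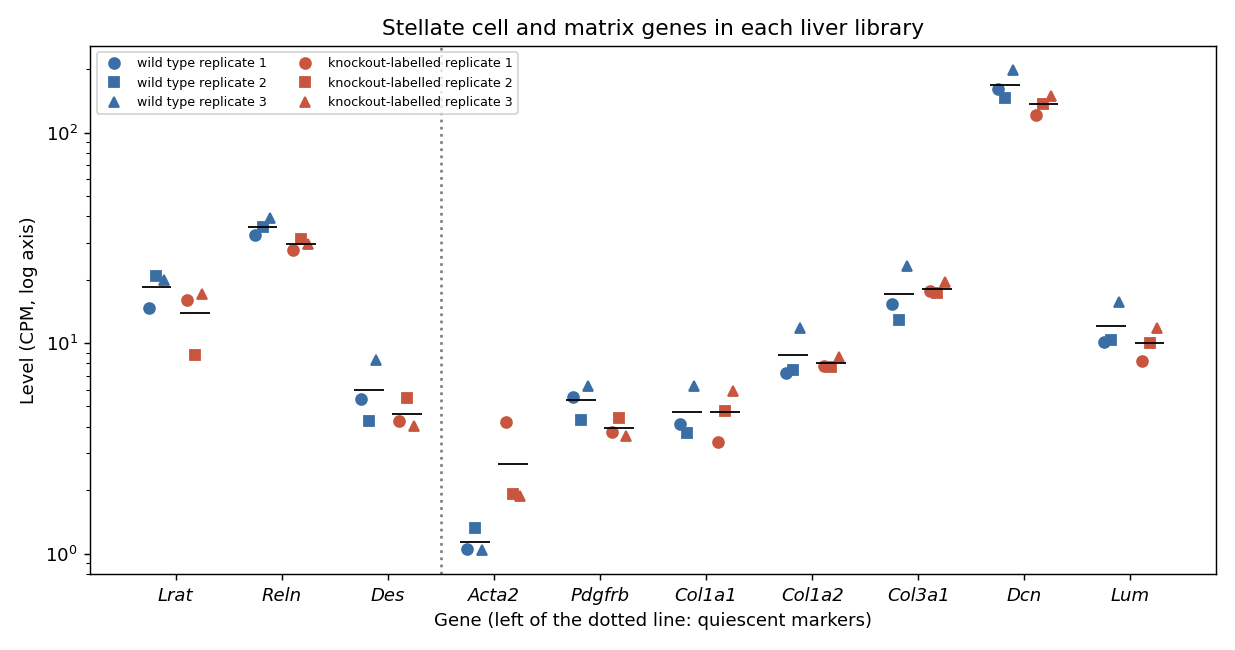
Levels of the 10 genes in CPM on a log axis, with 1 point per library (blue wild type, red knockout-labelled, symbols for replicates 1 to 3) and a black bar at each group mean. Acta2 lies at 1.04 to 1.33 CPM in wild type and 1.87 to 4.20 CPM in the knockout-labelled libraries, and wild type replicate 3 is the highest library for 8 of the 10 genes.

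Lrat encodes lecithin retinol acyltransferase, which esterifies retinol for storage, and lies on chromosome 3 (82892582 to 82903974, GRCm38). Its levels were 14.7, 20.8 and 19.97 CPM in wild type replicates 1, 2 and 3 and 16.0, 8.78 and 17.1 CPM in the knockout-labelled replicates. Knockout-labelled replicate 2 was the lowest library, and the other knockout-labelled libraries lay within the wild type range. The log2 fold change was -0.41 (SE 0.25, 95% confidence interval -0.98 to 0.17, edgeR adjusted p 0.984), and -0.16 without knockout-labelled replicate 2.

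Reln encodes reelin, a large secreted glycoprotein that marks stellate cells in liver, and spans chromosome 5 from 21884454 to 22344705. It stood at 32.5, 35.6 and 39.1 CPM in wild type and at 27.8, 31.1 and 29.4 CPM in the knockout-labelled libraries. Every knockout-labelled library was below every wild type library, by a narrow margin. The log2 fold change was -0.28 (SE 0.11, interval -0.52 to -0.04, edgeR adjusted p 0.925). Without wild type replicate 3 it was -0.21, with an unadjusted edgeR p of 0.10.

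Des, on chromosome 1 (75359566 to 75368579), encodes desmin, the intermediate filament protein of muscle and of rodent stellate cells. It had 5.41, 4.25 and 8.29 CPM in wild type and 4.26, 5.46 and 4.02 CPM in the knockout-labelled libraries, so the groups overlapped and wild type replicate 3 stood highest. The log2 fold change was -0.39 (SE 0.26, interval -0.96 to 0.19) and was -0.08 without wild type replicate 3. Muscle also expresses Des. Of 7 skeletal muscle genes in the table, Neb had 116 to 172 counts per library, and the other 6, Mylpf the highest, summed to 4 to 11. Of smooth muscle genes Tagln had 65.9 to 100.5 counts, Smtn 86 to 137, Myl9 27 to 55 and Myh11 13 to 36, while Cnn1 and Actg2 had at most 3. The part of muscle in the Des values was not tested.

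A further 20 genes of resting stellate cells were listed, of which 19 were tested. None passed the adjusted edgeR threshold (0 genes, with 2 at an unadjusted p under 0.05, both lower), 14 of the 19 log2 fold changes were negative and their median was -0.08. Among all genes tested, 2.2% were lower at that unadjusted level and 50.5% had a negative log2 fold change. Ngfr, the nerve growth factor receptor gene, stood at 4.47, 2.497 and 2.78 CPM in wild type and at 1.87, 2.21 and 1.87 CPM in the knockout-labelled libraries, with no overlap. Hgf, the hepatocyte growth factor gene that stellate cells express, had 4.25, 3.03 and 3.601 CPM (wild type) and 2.27, 2.62 and 2.53 CPM (knockout-labelled), again with no overlap. Their log2 fold changes were -0.71 (SE 0.28) and -0.55 (SE 0.22), with edgeR adjusted p of 0.926 and 0.928. Gfap, a stellate marker better known from astrocytes, had 0 to 9 counts per library and was below the filter.

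Acta2 encodes smooth muscle alpha actin, the standard marker of activated stellate cells and of vascular smooth muscle, and lies on chromosome 19 (34240336 to 34255585). Its counts were 19, 25 and 19 in wild type replicates 1, 2 and 3 and 72, 33 and 34 in the knockout-labelled replicates, or 1.05, 1.33 and 1.04 CPM against 4.20, 1.92 and 1.87 CPM. Knockout-labelled replicate 1 was well above all others, and the other knockout-labelled libraries were slightly above the wild type range. The exact 95% Poisson interval of the count, which covers counting error only, was 56.3 to 90.7 in knockout-labelled replicate 1 and 22.7 to 46.3 in replicate 2, against 16.2 to 36.9 in wild type replicate 2. The log2 fold change was 1.22 (SE 0.37, interval 0.39 to 2.04), 110th of the 12033 genes in order of p, with an unadjusted p of 0.0083 and an edgeR adjusted p of 0.85. Without knockout-labelled replicate 1 it was 0.73, with an unadjusted edgeR p of 0.040.

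Actin genes are near-identical in their coding parts, so the split of reads among them is uncertain. Acta1, Actc1 and Actg2, the other muscle actin genes, had at most 3.02 estimated counts in a library, while the cytoplasmic actin genes Actb and Actg1 reached 8715 and 3405. Among 14 Kupffer cell genes edgeR called 0 (smallest adjusted p 0.739), with 8 at an unadjusted p under 0.05, all with higher means in the knockout-labelled group. Of all genes tested, 2.95% were higher at that unadjusted level. Together they summed to 329.2, 356.6 and 364.2 CPM in wild type and to 414.6, 446.9 and 425.3 CPM in the knockout-labelled libraries, without overlap. All 14 were tested and none was at 0. Knockout-labelled replicate 1, the highest library for Acta2, was the lowest of its group for this sum and above every wild type library. The part of these cells in the Acta2 difference was not tested.

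Other genes of the contractile apparatus had smaller log2 fold changes than Acta2. Of 16 listed genes 10 were tested; edgeR called 0, none had an unadjusted p under 0.05 (0 genes), and the median log2 fold change was 0.01. Tagln, which encodes transgelin and accompanies Acta2 in smooth muscle and activated stellate cells, had estimated counts of 99.7, 65.9 and 95.7 (wild type) and 76.5, 77.8 and 100.5 (knockout-labelled), with a log2 fold change of 0.03. Myl9, a myosin light chain gene, had one of 0.02. Myh11, the smooth muscle myosin heavy chain gene, had 13, 19 and 19 counts against 31, 36 and 15, a log2 fold change of 0.76 (SE 0.39) that did not pass (edgeR adjusted p 0.973), and the groups overlapped. Smtn, the smoothelin gene, gave -0.20 (SE 0.19).

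The promoters of Acta2, Des and Col1a2 are shown because these genes, an activation marker, a quiescent marker that also marks muscle, and a collagen gene, had log2 fold changes of 1.22, -0.39 and -0.14. Each window runs from 250 bases before to 50 bases from a start that the promoter table gives (RefSeq, GRCm38.p6), and that table held 6 of the 10 genes. These starts differ from the ends of the gene spans in the deposited table: they lie 212 bases inside the span of Acta2, 726 inside that of Des and 2142 inside that of Col1a2. For Des and Col1a2 they are the RefSeq gene starts, while for Acta2 the RefSeq span also ends 212 bases farther out. Capitals mark CArG-like elements (the CArG box, the recognition element of serum response factor, with at most 1 G or C allowed in its core of A and T), the motif CCAAT, the motif TATAAA (held by 13.6% of windows) and the motif GGGCGG, all searched on both strands. The Acta2 window is chr19:34255324-34255623 on the minus strand, the Des window is chr1:75360042-75360341 on the plus strand, and the Col1a2 window is chr6:4505368-4505667 on the plus strand.
Acta2: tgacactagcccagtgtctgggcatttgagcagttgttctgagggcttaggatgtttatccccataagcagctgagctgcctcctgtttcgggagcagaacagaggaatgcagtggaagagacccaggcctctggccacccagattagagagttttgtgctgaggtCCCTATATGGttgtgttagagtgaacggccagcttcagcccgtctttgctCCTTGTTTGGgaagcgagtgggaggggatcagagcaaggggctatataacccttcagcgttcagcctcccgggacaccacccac
Des: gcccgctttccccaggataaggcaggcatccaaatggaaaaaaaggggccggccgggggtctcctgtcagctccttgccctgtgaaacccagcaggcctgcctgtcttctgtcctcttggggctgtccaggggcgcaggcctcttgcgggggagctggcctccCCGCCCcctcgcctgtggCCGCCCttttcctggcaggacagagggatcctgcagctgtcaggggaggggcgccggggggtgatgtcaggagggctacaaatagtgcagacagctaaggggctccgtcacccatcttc
Col1a2: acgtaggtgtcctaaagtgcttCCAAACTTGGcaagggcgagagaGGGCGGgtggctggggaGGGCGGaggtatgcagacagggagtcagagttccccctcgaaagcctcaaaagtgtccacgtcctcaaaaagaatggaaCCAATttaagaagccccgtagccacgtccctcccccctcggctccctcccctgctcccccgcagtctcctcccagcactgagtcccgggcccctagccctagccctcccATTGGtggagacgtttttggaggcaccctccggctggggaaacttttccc
The Acta2 window held 2 CArG-like elements, CCCTATATGG at -84 to -75 and CCTTGTTTGG at -34 to -25 (counted from the window's start site as 0), and none of the other motifs. CArG-like elements occurred in 9.96% of 32544 promoter windows of this length. The Col1a2 window held 1 CArG-like element, CCAAACTTGG at -228 to -219, with 2 matches to CCAAT (37.4% of windows hold at least 1) and 2 to GGGCGG (35.9% of windows). No strict CArG box, which 1.64% of windows hold, was found in any of the 3. The Des window held no CArG-like element and 2 matches to GGGCGG. Among the windows searched but not shown, that of Lrat (log2 fold change -0.41) held 1 CArG-like element. Those of Reln and Col3a1 held none. A match describes letters in a window and not a bound factor.

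Pdgfrb, on chromosome 18 (61045150 to 61085067), encodes the beta receptor for platelet-derived growth factor, which stellate cells carry and which increases on activation. It stood at 5.52, 4.30 and 6.22 CPM in wild type and at 3.79, 4.42 and 3.64 CPM in the knockout-labelled libraries. Only wild type replicate 2 reached down into the knockout-labelled range. The log2 fold change was -0.44 (SE 0.20, interval -0.88 to 0.01, edgeR adjusted p 0.964). Its sign was opposite to that of Acta2, although both are used as activation markers. Of 6 further genes of the pathway, ligands and receptors, 5 were tested and edgeR called 0, with 0 at an unadjusted p under 0.05; all 5 log2 fold changes were negative, with a median of -0.07 and the lowest at -0.37 (Pdgfd, a ligand of this receptor). Pdgfra, the alpha receptor gene, gave -0.09 (SE 0.28).

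Col1a1 and Col1a2 encode the chains of type I collagen, and Col3a1 encodes type III collagen; they lie on chromosomes 11 (94936224 to 94953042), 6 (4503476 to 4541543) and 1 (45311538 to 45349706). Col1a1 stood at 4.14, 3.72 and 6.27 CPM in wild type and at 3.38, 4.77 and 5.95 CPM in the knockout-labelled libraries. Col1a2 stood at 7.23, 7.44 and 11.7 CPM and at 7.81, 7.67 and 8.54 CPM. Col3a1 stood at 15.4, 12.8 and 23.3 CPM and at 17.6, 17.3 and 19.4 CPM. For all 3 genes wild type replicate 3 was the highest library, and the knockout-labelled libraries lay within or close to the range of the wild type group.

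The log2 fold changes were -0.0014 for Col1a1 (SE 0.27, interval -0.60 to 0.60), -0.14 for Col1a2 (SE 0.20, interval -0.59 to 0.31) and 0.08 for Col3a1 (SE 0.20, interval -0.38 to 0.54). These intervals leave room for changes of either sign and do not show that the groups were equal. The signs also turned with single libraries. Without wild type replicate 3 Col1a1 stood at 0.26, Col1a2 at 0.13 and Col3a1 at 0.36 (unadjusted edgeR p 0.030), and without wild type replicate 2 Col3a1 stood at -0.09. Per length, Col1a1 was 0.377 to 0.613 of Col1a2 in TPM, and Col3a1 was 3.48 to 5.59 times Col1a1, with the groups overlapping in both ratios.

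Among 14 other collagen genes, all tested, edgeR called 0, with 0 at an unadjusted p under 0.05. The signs were split evenly, 7 positive and 7 negative, with a median of -0.04. Col5a1, a chain of type V collagen, stood at 2.76 CPM in the knockout-labelled group and 3.84 CPM in wild type (log2 fold change -0.48, SE 0.26). The groups did not overlap, but knockout-labelled replicate 2 (3.254 CPM) and wild type replicate 1 (3.256 CPM) were nearly equal. Col14a1 gave -0.19 (SE 0.12). Of 17 genes of collagen processing and cross-linking 15 were tested and 12 were positive with a median of 0.17, edgeR called 0, and 2 had an unadjusted p under 0.05, both higher. At that unadjusted level 2.95% of all genes tested were higher. Loxl1, a lysyl oxidase-like enzyme gene, had counts of 9, 19 and 22 (wild type) and 32, 22 and 35 (knockout-labelled), a log2 fold change of 0.90 (SE 0.36, edgeR adjusted p 0.928). P4hb, which encodes protein disulfide isomerase and a subunit of prolyl hydroxylase and is expressed in most secretory cells, had a log2 fold change of 0.22 (SE 0.10).

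**Figure D2:**
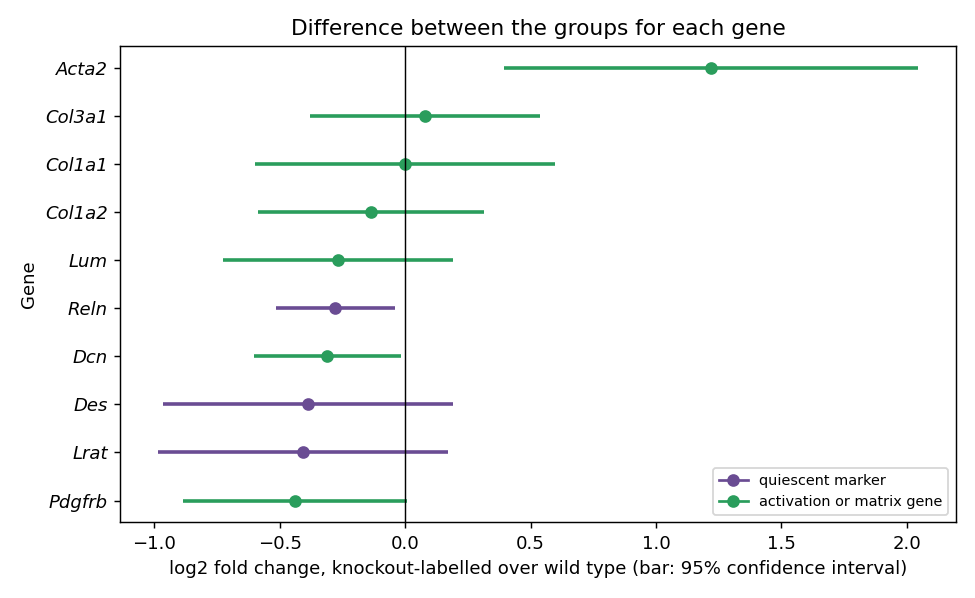
Log2 fold change of each gene, knockout-labelled over wild type, as a point with its 95% confidence interval from edgeR (purple quiescent markers, green activation and matrix genes). The intervals of Acta2 (0.39 to 2.04), Reln (-0.52 to -0.04) and Dcn (-0.60 to -0.02) do not include 0 before adjustment for multiple testing.

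Dcn and Lum encode small leucine-rich proteoglycans that bind collagen fibrils and are neighbours on chromosome 10, Dcn from 97479500 to 97518163 and Lum from 97565501 to 97572703, with 47337 bases between them. Dcn stood at 160.6, 146.6 and 198.4 CPM in wild type and at 121.3, 136.7 and 150.0 CPM in the knockout-labelled libraries. Knockout-labelled replicate 3 reached just above wild type replicate 2, so the groups overlapped slightly. The log2 fold change was -0.31 (SE 0.13, interval -0.60 to -0.02, unadjusted p 0.041, edgeR adjusted p 0.944). Without wild type replicate 3 it was -0.18.

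Lum stood at 10.2, 10.4 and 15.7 CPM in wild type and at 8.22, 9.996 and 11.8 CPM in the knockout-labelled libraries, with overlap. Its log2 fold change was -0.27 (SE 0.20, interval -0.73 to 0.19, edgeR adjusted p 0.984). With wild type replicate 3 left out it was -0.03. The ratio of Dcn to Lum in TPM stayed between 14.1 and 17.7 in the 6 libraries. Within each group both genes had their highest value in replicate 3.

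Of 28 other matrix proteoglycan and glycoprotein genes 23 were tested. EdgeR called 0 of them, 3 had an unadjusted p under 0.05, all lower, and 15 of the 23 were negative with a median of -0.07. The shares over all genes tested were 2.2% lower at that unadjusted level and 50.5% negative. Postn, which encodes periostin, a matrix protein of fibroblasts, had counts of 224, 195 and 263 (wild type) and 154, 142 and 133 (knockout-labelled), with no overlap. Its log2 fold change of -0.59 (SE 0.16) had an unadjusted p of 0.0043 and an edgeR adjusted p of 0.823. For Lamb1, a laminin chain gene, the log2 fold change was -0.44 (SE 0.19), with no overlap. Vcan, Aspn and Mfap5, matrix genes linked to activated fibroblasts, had at most 5 counts in any library.

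Signalling and turnover genes around stellate activation gave few differences. Of 18 tested genes of transforming growth factor beta signalling edgeR called 0, with a median of 0.07. An unadjusted p under 0.05 was found for 1 of them, against 5.15% of all genes tested. That gene was Tgfbr2, the type II receptor gene, with 32.8 ± 3.13 CPM in wild type against 41.2 ± 3.62 CPM in the other group (SD, n = 3 each) and a log2 fold change of 0.33 (SE 0.11, edgeR adjusted p 0.903). Ltbp1, which encodes a protein that binds the latent ligand, gave 0.41 (SE 0.39) with overlap, and the ligand gene Tgfb1 gave 0.16. Ctgf, a target gene of this pathway, had counts of 42, 118 and 195 (wild type) and 85, 91 and 61 (knockout-labelled), so that the wild type libraries differed more among themselves than the groups did. Of 9 tested matrix turnover genes edgeR called 0, and 0 had an unadjusted p under 0.05. The smallest p among them belonged to Mmp9, a gelatinase gene (log2 fold change -0.47, SE 0.43), and Timp2, a metalloproteinase inhibitor gene (0.18, SE 0.22), both with overlap. Timp1, the metalloproteinase inhibitor gene that is strongly induced in fibrosis, had 0 to 5 counts per library.

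Per library, the mean log2 CPM of the 3 quiescent markers was 3.78, 3.88 and 4.22 in wild type and 3.63, 3.52 and 3.66 in the knockout-labelled libraries, without overlap. The mean log2 CPM of the 7 activation and matrix genes was 3.16, 3.09 and 3.59 against 3.27, 3.27 and 3.37, with overlap. Their difference, activation minus quiescent, was -0.62, -0.79 and -0.64 in wild type and -0.37, -0.25 and -0.30 in the knockout-labelled libraries. All knockout-labelled libraries were thus above all wild type libraries on this scale. Without Acta2 the difference was -0.11, -0.35 and -0.05 in wild type and -0.17, 0.13 and 0.11 in the knockout-labelled libraries, and the groups overlapped. No test was made of these averages, since the 10 genes were chosen with results in view.

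**Figure D3:**
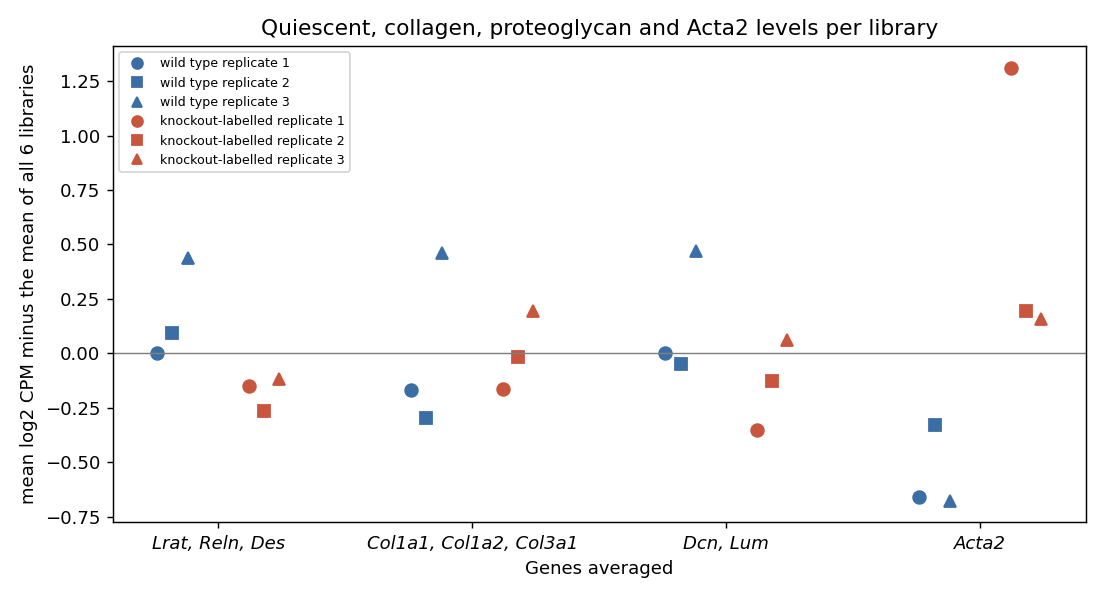
Mean log2 CPM of the quiescent markers, the fibrillar collagens, the proteoglycans Dcn and Lum, and Acta2 in each library, minus the mean of all 6 libraries (blue wild type, red knockout-labelled, symbols for replicates). The quiescent mean is lower and Acta2 higher in every knockout-labelled library, while the collagens and proteoglycans overlap and peak in wild type replicate 3.

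Wild type replicate 3 was the highest library for 8 of the 10 genes (all but Lrat and Acta2), against 17.6% of all genes tested. Knockout-labelled replicate 1 was the lowest for 4 of the 10 (Reln, Col1a1, Dcn and Lum), and the share of all genes lowest there was not computed. Wild type replicate 3 also had the most counts of intestinal genes: 24 such genes below the low-count filter had summed counts of 230, 25 and 479 in wild type replicates 1, 2 and 3, with 5, 11 and 10 in the knockout-labelled ones. The filter drops genes high in only 1 or 2 libraries, so this subset favours such genes. Over all 29 intestinal genes present the sums were 246.5, 212.1 and 263.2 CPM in wild type. They were 214.5, 214.3 and 192.5 CPM in the knockout-labelled libraries, with overlap. Of the 5 tested, 3 log2 fold changes were negative and 2 positive, with Tff3 at 0.96. The intestinal list's highest genes, Anpep and Fabp2, are also expressed in liver and stood at 118.8 and 103.4 CPM in wild type and 130.7 and 71.7 CPM in the other group, with overlap. Genes that mark the surface lining of the organ, the mesothelium (Krt19 among them also marks bile ducts), were highest in replicate 3 of each group: 7 of them summed to 6.35, 9.25 and 16.5 CPM in wild type and 9.91, 8.89 and 21.0 CPM in the knockout-labelled libraries. The 7 portal fibroblast genes, of which Dpt was the highest at 56 to 134 counts and Gli1 and Slit2 had at most 2, summed to 5.08, 6.11 and 10.7 CPM in wild type and 8.10, 9.47 and 9.20 CPM in the knockout-labelled libraries. That sum was highest in wild type replicate 3 and, in the knockout-labelled group, in replicate 2. The summed CPM of the 3 fibrillar collagens was 26.8, 23.96 and 41.3 in wild type and 28.8, 29.8 and 33.9 in the knockout-labelled libraries, also with its highest value in replicate 3 of each group. The part of these other cells in the collagen and proteoglycan values was not tested.

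**Figure D4:**
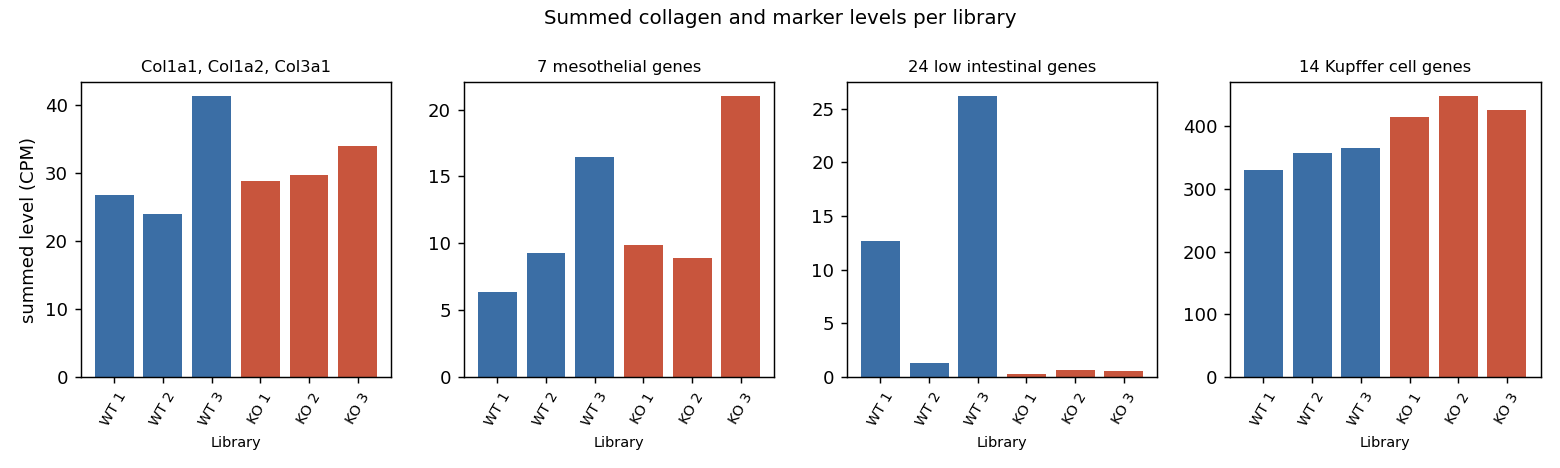
Summed CPM per library of the 3 fibrillar collagen genes, 7 mesothelial genes, 24 intestinal genes below the low-count filter and 14 Kupffer cell genes (blue wild type, red knockout-labelled). Collagen and mesothelial sums are highest in replicate 3 of each group, the intestinal sum in wild type replicate 3 (26.1 CPM) and replicate 1 (12.7 CPM), and the Kupffer sums of the groups do not overlap. Being below the filter favours intestinal genes that are high in few libraries.

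Without wild type replicates 1 and 3 together, the libraries with the most intestinal counts, the log2 fold change of Reln was -0.29 and that of Lrat -0.59, close to or beyond the values with all libraries. Those of Dcn, Lum and Pdgfrb were -0.12, -0.06 and -0.14, and that of Des turned to 0.09. Acta2 stood at 0.98 in that setting, Col1a1 at 0.33, Col1a2 at 0.09 and Col3a1 at 0.49. A single wild type library remained there and was assumed to vary like the knockout-labelled group.

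**Figure D5:**
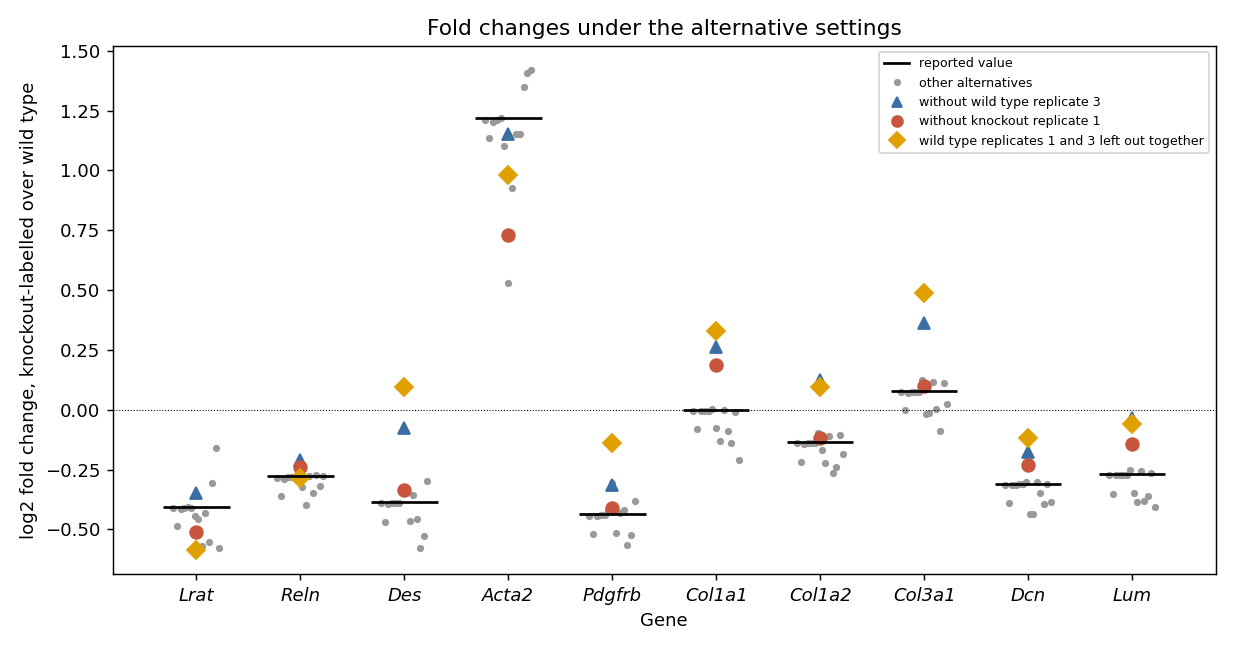
Log2 fold change of each gene, knockout-labelled over wild type, as reported (black bar) and under the alternative settings (grey points), with 3 left-out settings in colour. Acta2 is positive and Reln, Lrat, Dcn, Lum and Pdgfrb are negative in every setting drawn, while the 3 collagen genes and Des fall on both sides of 0.

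Genes with the profile over the 6 libraries nearest to the mean of the 3 fibrillar collagens were Actg1, Sdhaf3, Tmem37, 9130023H24Rik and Pfkfb1, at a root-mean-square distance of 0.057 to 0.071 in centred log2 CPM, against a median of 0.31 over all genes. Lum was 182nd and Dcn 720th in this order. Lrat (distance 0.45) and Acta2 (distance 0.79) were farther from the collagens than the median gene. The genes nearest to Acta2 were Chst7, Shroom4, Pirb, Plek and Fam167a, at distances of 0.25 to 0.35 against a median of 0.71. All 5 were low, at most 4.90 CPM in any library, and none of the other 9 stellate and matrix genes came nearer to Acta2 than the median gene. The distance takes in the group difference and its size. It therefore partly restates the fold changes above and does not show whether genes vary together within a group.

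In the authors' deposited table, from DESeq2, the log2 fold changes of the 10 genes ran from -0.44 (Pdgfrb) to 1.22 (Acta2), and no q-value was below 0.609 (Acta2). The p-values in the authors' deposited table were 0.0055 for Acta2, 0.036 for Dcn and 0.043 for Reln.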

How the data were processed

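Liver mRNA was sequenced from 3 wild type mice and 3 mice with a Cgref1 knockout. HISAT, Bowtie2, RSEM and DESeq2 were used, per the submitters' processing notes; their versions, settings, strand use and genome build were not given in the sources used here. Chromosome accessions in the table are those of GRCm38. Gene-level expected counts were deposited by the authors for each library without normalization, with 92.3% to 92.9% whole values. The authors also deposited TPM values and FPKM values (the latter not used), and a log2 fold change, p-value and q-value from DESeq2. The 6 columns of group means and 9 columns comparing single libraries were not used (15 in all).

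Counts were rounded, filtered with filterByExpr (minimum count 10; 12033 genes kept), scaled by TMM factors (0.955 to 1.05) and compared in R 4.3.3 by the quasi-likelihood test of edgeR 4.0.16, with robust dispersions and no block. P-values were adjusted over all genes (Benjamini-Hochberg; threshold 0.05), and the biological coefficient of variation came to 15.8%. Alternatives used DESeq2 1.42.0 and limma 3.58.1, other scalings and filters, log2(TPM + pseudocount of 1 or 0.1), a replicate block and left-out libraries. The steps were tested on simulated data.

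The 10 genes and the lists were chosen with earlier results of these data known. Named beside the 10 were the 2 genes of each stellate and matrix list with the smallest p, the 2 highest genes of each list of other cells, and the 5 genes nearest in profile to the collagens and to Acta2. Other named genes were chosen after their values were seen.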

Additional observations from a re-analysis of the deposited data

How the results depend on the processing

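No alternative called any of the 10 genes, so their count stayed at 0 under all 17, and Acta2 stayed positive and Lrat, Reln, Pdgfrb, Dcn and Lum negative in each one that kept them. Over all genes edgeR called 1; the count was 33 with DESeq2, 34 with the replicate block, 0 at a mean of at least 5 CPM (452 at an unadjusted p under 0.05), 0 without wild type replicates 1 and 3 together (279), and 1 to 5 with each library left out in turn (5 without knockout-labelled replicate 1). Library totals and TPM shifted the median of all genes to -0.084 and to -0.11 or -0.13. The cause of these differences was not tested. Signs turned for Col3a1 with library totals (-0.0030), TPM with a pseudocount of 1 (-0.017) or 0.1 (-0.014) and without wild type replicate 2 (-0.089; 0.36 without wild type replicate 3). They turned for Col1a1 with limma-voom (0.0037) and without wild type replicate 3 (0.26) or knockout-labelled replicate 1 (0.19), and for Col1a2 without wild type replicate 3 (0.13). Without wild type replicates 1 and 3 together they turned for Des (0.094), Col1a1 (0.33) and Col1a2 (0.094). The activation and matrix median was -0.14 and ran from -0.26 to 0.13 with each library left out, the highest without wild type replicate 3; the quiescent median was -0.39 and ran from -0.46 to -0.21. On TPM with a pseudocount of 1, which understates low genes, Acta2 stood at 0.53.

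Replicate numbers were not taken as pairs: same-numbered deviations from the group means correlated at 0.27, 0.055 and 0.33 across genes, although each library correlated best with its own number. With the replicate block 0 of the 10 genes were called and Acta2 stood at 1.15. The block lowered the SE of Dcn from 0.13 to 0.099 (unadjusted edgeR p 0.011) and that of Lum from 0.20 to 0.14. It raised the SE of Lrat from 0.25 to 0.26 and that of Pdgfrb from 0.20 to 0.21. The precision of these values thus depended on whether replicate numbers were used. Depth limits Acta2, at 19 to 72 counts per library, most.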

Other observations

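Single genes of the portal fibroblast and mesothelial sums above are given here, and they are not separate from those sums. Of the 14 listed 9 were tested, and 7 log2 fold changes were positive, with a median of 0.23. EdgeR called 0, with 1 at an unadjusted p under 0.05, against 5.15% of all genes tested. Thy1, a portal fibroblast surface marker, had counts of 9, 17 and 17 (wild type) and 22, 17 and 23 (knockout-labelled). Lrrn4 and Msln, mesothelial genes, had log2 fold changes of 0.88 (SE 0.39) and 0.80 (SE 0.44), with edgeR adjusted p of 0.953 and 0.974. For both the groups overlapped, and knockout-labelled replicate 3 was highest, at 49 and 76 counts. Other mesothelial genes gave 0.23 (Upk1b), 0.21 (Gpm6a), 0.08 (Upk3b) and -0.22 (Krt19). Upk3b, a mesothelial surface gene, had counts of 31, 58 and 105 (wild type) and 34, 31 and 132 (knockout-labelled).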
